A study of Homo sapiens and Mus musculus with 21 samples.

Results

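The 1592 positions described here are m6A sites that the wild-type (WT) miCLIP library of HEK293T cells listed with 5 or more substituted reads and that neither PCIF1 knockout (KO) library listed within 5 nt on the same strand. They were 12.6% (exact 95% interval 12.1 to 13.2) of the 12597 WT sites with 5 or more substituted reads, which is also the background share for every count of absent WT sites below. The members were chosen by their substituted reads in WT and by the positions listed in the KO libraries, so their absence is the rule and not a finding. The 3 HEK293T lists hold 132075 sites in all. HEK293T is a transformed human embryonic kidney line, and PCIF1 is an adenosine methyltransferase that acts at the mRNA cap. There is 1 WT library and there are 2 libraries labelled PCIF1 KO (KO 1 and KO 2), all from poly(A)-selected RNA and all with the same anti-m6A antibody. The labels do not say which KO clone each library came from. The lists were also compared the other way round, as mirror sets. Of 12868 KO 1 sites with 5 or more substituted reads, 1647 (12.8%, 12.2 to 13.4) were absent from the WT and KO 2 lists, and of 16473 such KO 2 sites, 2735 (16.6%, 16.0 to 17.2) were absent from the WT and KO 1 lists. The WT share was thus no larger than either mirror share. With a single WT library no test between genotypes is possible for the sites, and all intervals cover counting error only.

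N6-methyladenosine (m6A) is placed inside mRNAs by the METTL3 and METTL14 writer complex, mostly at DRACH motifs, where the methylated A stands before a C, and mostly near stop codons and in last exons. m6Am is a different mark: the first transcribed adenosine beside the cap carries a methyl group on its ribose and another at N6, and PCIF1 adds the latter. The antibody binds both marks. In miCLIP it is crosslinked to the RNA, and reverse transcription then leaves substitutions next to the bound base. Each listed site has a number of reads covering it (k), a number of those carrying the substitution (m), and its DRACH letters. The motif letters equalled the reference at 754 of 754 sites in promoter windows when the listed position was read as the C after the methylated A, so positions below are of that C. A list holds called sites only (at least 2 substituted reads, at least 4 reads and 1.003% to 50% substituted in the WT list). A site absent from a KO list may therefore still have had reads there, and those reads are not given.

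Absent sites that lay inside the authors' putative m6Am regions and close to an annotated gene start are shown first, because this is where the WT list differed most from the mirror sets. Each line gives 25 bases of the transcribed strand from RefSeq (GRCh38.p14), with the DRACH letters in capitals. They stand for ZRANB2, a splicing factor with RNA-binding zinc fingers (chr1:71081019-71081043, minus strand), SMC4, a condensin subunit (chr3:160399666-160399690, plus), DDX3X, an RNA helicase (chrX:41334189-41334213, plus), the start of RPS15, a small-subunit ribosomal protein (chr19:1438367-1438391, plus), COX7C, a cytochrome c oxidase subunit (chr5:86617954-86617978, plus), HDGF, a heparin-binding growth factor (chr1:156751654-156751678, minus), the start of RPL41, a large-subunit ribosomal protein (chr12:56116610-56116634, plus), UBL5, a ubiquitin-like splicing protein (chr19:9827907-9827931, plus), and the start of SLU7, a splicing factor (chr5:160419071-160419095, minus).
ZRANB2: cctcctgtgaAGACAtagctgcggg
SMC4: cccggagccgAAACAccggtaggag
DDX3X: cttcgcggtgGAACAaacactcgct
RPS15: agtctcgcgaTAACTgcgcaggcgc
COX7C: gcgcaccgggGAACAaggtcgtgaa
HDGF: tttcaaacacAAACAactgcacgag
RPL41: gccgtagacgGAACTtcgcctttct
UBL5: ttcctagcgtTAACTgcgaccgggg
SLU7: agccggaagtAAACAttacgagatt
The methylated A of the motif was base 5 of the annotated ZRANB2 transcript, base 29 of SMC4, base 36 of DDX3X, base 26 of COX7C, base 10 of HDGF and base 2 of UBL5. It lay 17 nt before the annotated RPS15 start, 11 nt before that of RPL41 and 2 nt before that of SLU7. None of the 9 motifs printed has the core GGAC, the most frequent one of the full list. A further site of this kind, at the start of CA2, has the motif GGACA and is not printed.

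Inside the m6Am regions, 16 of 26 WT sites with 5 or more substituted reads were absent from both KO lists (61.5%, 40.6 to 79.8), against 1576 of 12571 outside them (12.5%, 12.0 to 13.1). In KO 1 the corresponding counts were 3 of 8 inside regions and 1644 of 12860 outside, and in KO 2 they were 2 of 11 and 2733 of 16462. The mirror sets were thus small inside regions, and the intervals of KO 1 (8.52 to 75.5) and KO 2 (2.28 to 51.8) both overlap that of WT. Of the absent WT sites, 1.01% (0.576 to 1.63) lay in a region, against 0.0909% (0.0436 to 0.167) of the other WT sites, 0.182% of the absent KO 1 sites and 0.0731% of the absent KO 2 sites. By substituted reads, inside regions 9 of 15 sites with 5 or 6 substituted reads, 4 of 4 with 7 to 9 and 3 of 7 with 10 or more were absent, against 20.9%, 8.77% and 1.99% outside. In the mirror sets, 2 of 4 KO 1 sites and 2 of 3 KO 2 sites with 5 or 6 substituted reads inside regions were absent, against 1241 of 5922 and 1928 of 6967 outside. With 7 to 9 it was 1 of 3 and 0 of 1, and with 10 or more 0 of 1 and 0 of 7. The mirror counts inside regions are too few to set against those of WT at each level. How the authors chose the 2360 regions is not given in the sources used here, but the list is attached to the WT library, so reads of that library may have entered both the regions and the sites. Whether KO reads also entered the choice of regions is not known. The share of absent sites inside regions may therefore partly be set by that choice.

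Near gene starts the picture was similar. Within 50 nt of an annotated start on the same strand, 13 of 28 WT sites were absent from both KO lists (46.4%, 27.5 to 66.1). In the mirror sets, 2 of 17 KO 1 sites (1.46 to 36.4) and 4 of 25 KO 2 sites (4.54 to 36.1) were absent from the other lists. Both mirror intervals overlap that of WT. Of WT sites both inside a region and near a start, 10 of 14 were absent (interval 41.9 to 91.6), against 3 of 14 near a start but in no region (4.66 to 50.8). Of 12 WT sites inside a region but farther from a start, 6 were absent (21.1 to 78.9). These intervals overlap, so the counts are too few to separate the position from the region. Starts and regions account for few members, since 1573 of the 1592 lay in neither.

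**Figure D1:**
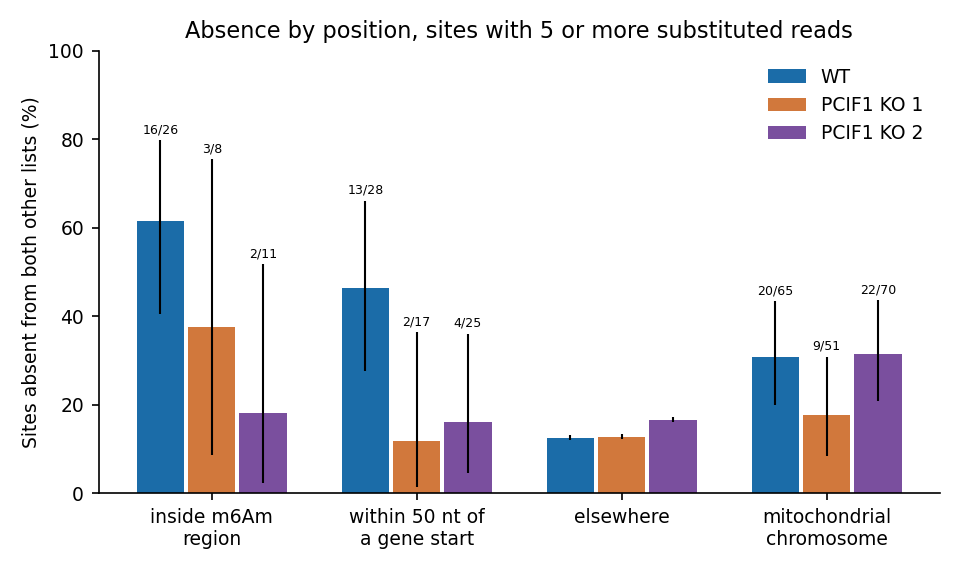
Share of sites with 5 or more substituted reads that were absent from both other lists (vertical axis, percent), by position (horizontal axis) and library (colour). Bars are shares, lines exact 95% intervals, and the small figures are absent sites over all sites, printed where a class holds under 1000. WT reached 61.5% inside m6Am regions and 46.4% near gene starts, and 12.5% elsewhere, which means outside regions and over 50 nt from a start and takes in the mitochondrial sites drawn apart.

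Among the absent sites inside regions, ZRANB2 had the most substituted reads, 29 of 86 (33.7%). The nearest KO sites were 13898 nt away in KO 1 and 11167 nt away in KO 2, and both had only 11 reads. SMC4 had 9 of 464 reads substituted (1.94%), DDX3X 7 of 185 (3.78%), the RPS15 start 6 of 243 (2.47%) and COX7C 5 of 336 (1.49%). HDGF had 5 of 315, OAZ1, the antizyme that controls polyamine levels, 5 of 267 at 100 nt from its start, the RPL41 start 5 of 189, UBL5 5 of 109 and the SLU7 start 5 of 13. A site at the start of CA2, a carbonic anhydrase, which also falls within CA3-AS1, had 5 of 157. Most of these start sites thus combined many reads with few substitutions, whereas ZRANB2 and SLU7 did not.

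The other region members lay in the bodies of 3 genes. NEFM, a neurofilament subunit and one of the HEK293T markers, held 2 of them, with 12 of 46 and 7 of 46 substituted reads. All 5 WT sites of NEFM, the other 3 with 2 to 4 substituted reads, were in the WT list only, and the gene holds 4 m6Am regions with scores of 2.41 to 3.07. SHISA2, a regulator of Wnt and FGF receptors, held 2, with 7 of 110 and 5 of 18 substituted reads. KO 1 listed no SHISA2 site near them, and its closest sites lay 167473 and 163118 nt away. The nearest KO 2 site, with 16 reads, lay 49 nt from the first member and 4306 nt from the second. PCIF1 itself held 1, at 20:45947799 in the region from 45947651 to 45948000, with 10 of 85 reads substituted. That region lies at the far end of the gene, 13116 nt from its start, and has a score of 4.15. KO 1 listed a PCIF1 site 9 nt away with 2 of 8 reads, and KO 2 listed one 89 nt away with 2 of 5 reads. At that KO 2 position WT had 4 of 63 reads. The 2 members in NEFM share a gene, as do the 2 in SHISA2, so they are not separate observations of a gene.

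Of the near-start members outside any region, TOP2B, a DNA topoisomerase, had 6 of 67 reads substituted, DLX1, a homeobox factor, 5 of 36, and SMC4, at base 7 of an alternative start, 5 of 24. The nearest KO sites of TOP2B were 178 nt away in both libraries, with 75 and 103 reads. The second SMC4 site and the one shown above belong to different annotated starts of the gene.

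Reads at positions that WT and a KO library both listed give a measure that the choice of members did not use. How the m6Am regions were chosen is not known, and reads of these libraries, KO included, may have entered that choice. Lower KO reads inside regions may thus partly be set by it. Inside m6Am regions, 6 such positions were shared with KO 1 and all 6 had fewer reads in KO 1, with a median KO over WT ratio of 0.285 (quartiles 0.249 and 0.330). Over 16342 shared positions outside regions the median was 1.02 (0.826 and 1.27). Of 12 region positions shared with KO 2, 8 had fewer reads in KO 2, with a median ratio of 0.416, against 1.24 over 18509 positions outside. The 3 HSPA1B positions (heat shock protein 70) were the ones with more reads in KO 2. Positions of the same gene, as in HSPA1B and JTB, are not separate observations. Among the positions with fewer reads was one in PCIF1, the knocked-out gene itself, with 63 reads in WT and 5 in KO 2. At the XIST start, k was 1891 in WT, 794 in KO 1 and 555 in KO 2, and at TUBA1B, an alpha-tubulin, it was 1105, 198 and 439. Near a start but outside regions the median ratio was 0.925 for KO 1 (24 positions) and 0.930 for KO 2 (23 positions). Pooled over the region positions, so that the deepest weigh most, the share of reads that were substituted was 2.25% in WT and 5.79% in KO 1. For the positions shared with KO 2 it was 2.53% in WT and 5.95% in KO 2. Outside regions the pooled shares were 6.58% in WT and 6.55% in KO 1, and 6.54% in WT and 6.31% in KO 2. At the XIST position the substituted reads were 36, 42 and 26 in WT, KO 1 and KO 2, and at TUBA1B 18, 9 and 19. These k values are not scaled to library size, and the positions had to be called in both libraries.

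**Figure D2:**
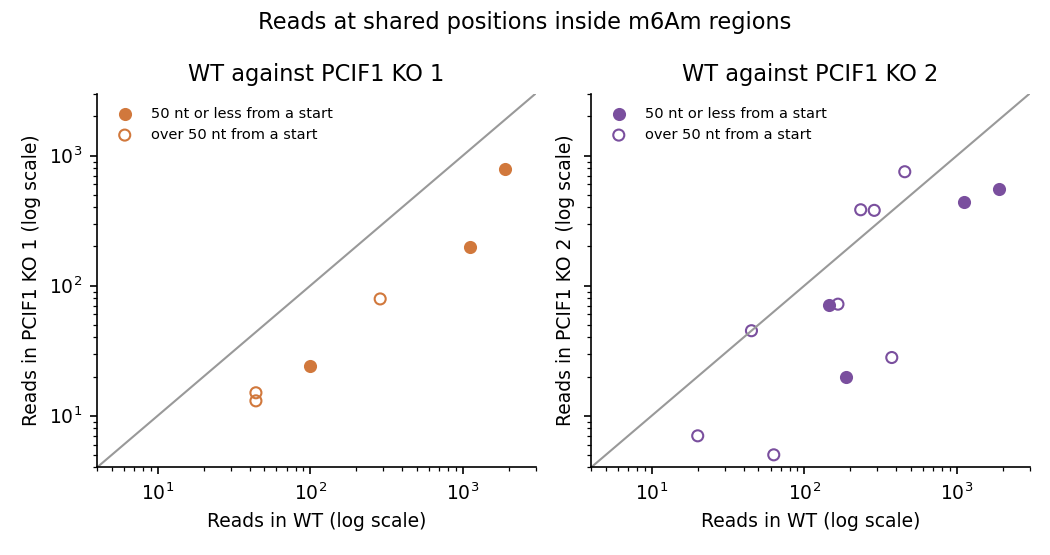
Reads at positions inside m6Am regions that WT (horizontal axis, log scale) and a KO library (vertical axis, log scale) both listed, KO 1 on the left and KO 2 on the right. Each point is 1 position (a gene can hold several), filled within 50 nt of a gene start, and the line marks equal reads. All 6 points lie below the line for KO 1 and 8 of 12 for KO 2.

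Away from starts and regions, the members were mostly the sites with the fewest substituted reads. The values used by the rule are given here as a description only. Of the 1592, 854 (53.6%) had exactly 5 substituted reads and 4 had 20 or more. The share absent from both KO lists was 24.3% at 5 substituted reads, 15.8% at 6, 8.87% at 7 to 9, 2.41% at 10 to 19 and 0.647% (4 of 618) at 20 or more. Just outside the threshold, at 4 substituted reads, it was 33.6%. KO 1 gave 23.5% at 5 and 0.514% at 20 or more, and KO 2 31.6% and 0.286%, so the decline with substituted reads was common to the 3 libraries. On the distance side, the 36 WT sites whose nearest KO site was 5 nt away were not members and the 32 at 6 nt were.

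**Figure D3:**
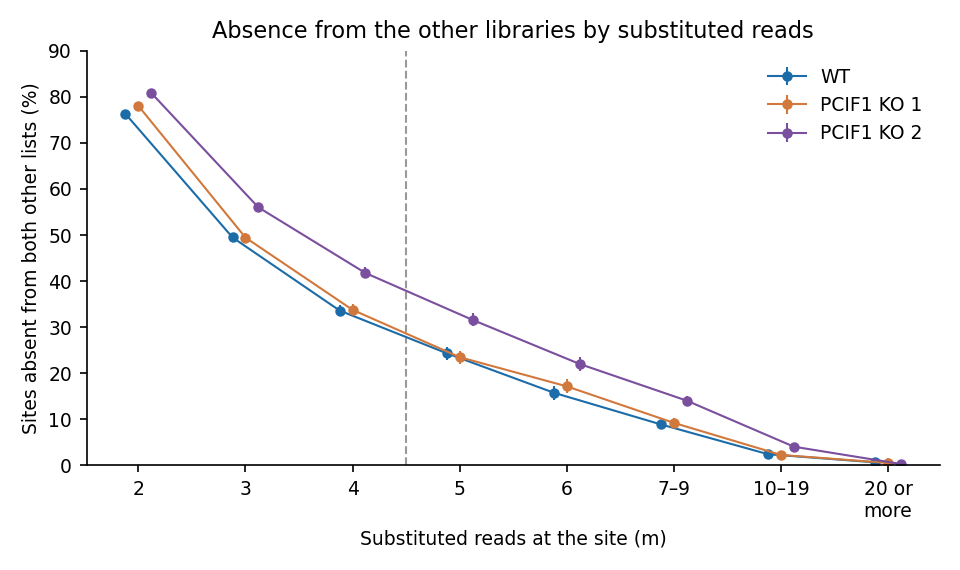
Share of listed sites absent from both other lists (vertical axis, percent) by the number of substituted reads at the site (horizontal axis), for the 3 libraries. Points are shares, lines through them exact 95% intervals, and the dashed line is the threshold of 5. The share declines from 76.3% at 2 substituted reads to 0.647% at 20 or more in WT, and the WT and KO 1 curves nearly coincide.

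Members also had fewer reads. Their median k was 50 (quartiles 31 and 89), against 100 (60 and 169) at the other WT sites with 5 or more substituted reads. The mirror medians were 59 against 101 in KO 1 and 67 against 115 in KO 2. The members' substituted share was higher, with a median of 11.6% against 7.94%. The deepest sites form a small class. Of 276 WT sites with 500 or more reads, 24 were absent (8.70%, 5.65 to 12.7), an interval that overlaps that at 200 to under 500 reads (4.80%, 3.88 to 5.85). Over these classes, from 200 to under 500 reads to 500 or more, KO 1 had 124 of 1938 and then 18 of 280 absent, and KO 2 had 296 of 3117 and then 36 of 494. In WT, 22 of the 24 had under 2% of reads substituted, against 75 of the 252 others (29.8%). The lowest substituted share in the list was 1.003%.

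**Figure D4:**
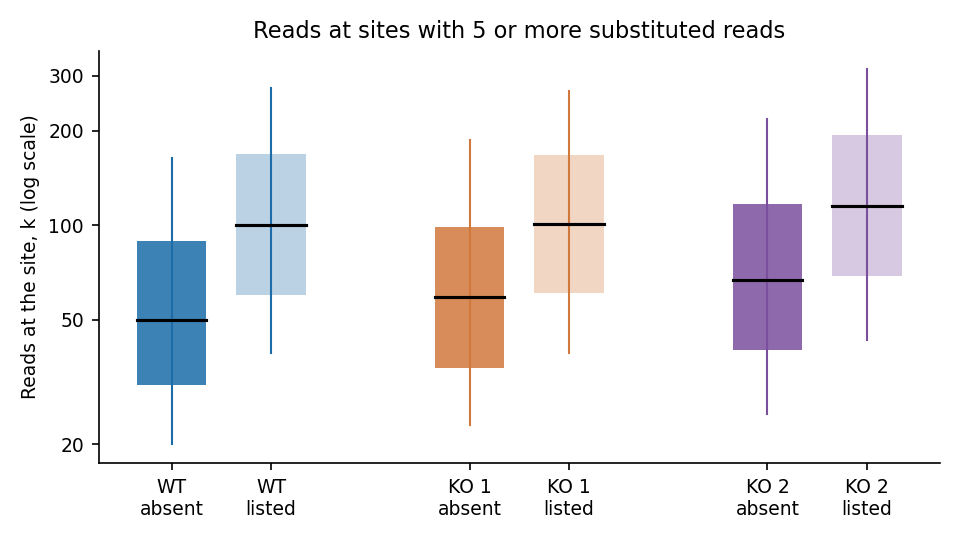
Reads at sites with 5 or more substituted reads (vertical axis, log scale) in each library, split into sites absent from both other lists and sites listed in at least 1 of them. Boxes span the quartiles, black bars are medians and thin lines run from the 10th to the 90th percentile. The median of absent sites is 50 in WT, 59 in KO 1 and 67 in KO 2, below the listed sites in each library.

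**Figure D5:**
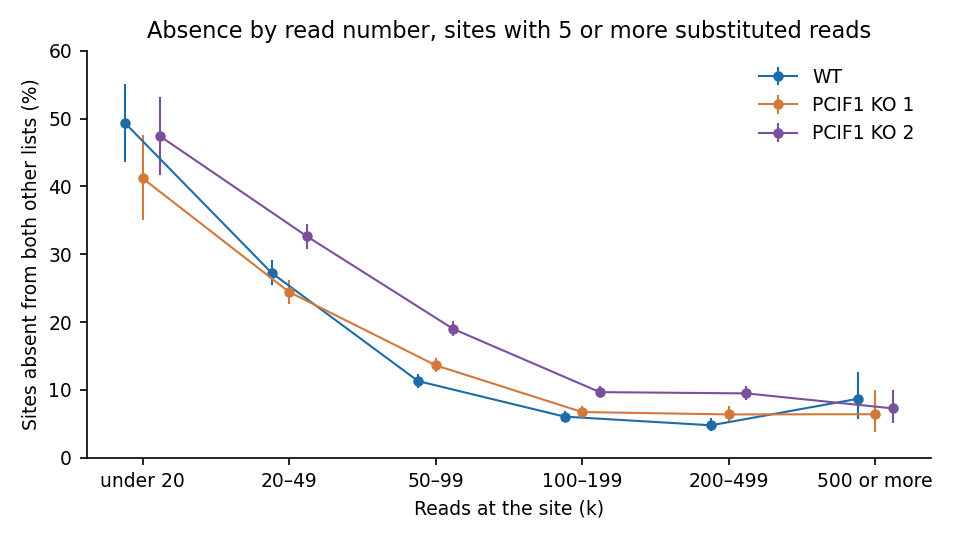
Share of sites with 5 or more substituted reads that were absent from both other lists (vertical axis, percent) by reads at the site (horizontal axis), for the 3 libraries. Points are shares and lines through them exact 95% intervals. The WT share goes from 49.3% under 20 reads to 4.80% at 200 to under 500 reads, and is 8.70% at 500 or more.

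Within 1000 nt of a member the KO lists were seldom empty, but 910 of the 1592 members had no KO site within 50 nt. The nearest KO site lay 6 to 10 nt away for 127 members (7.98%), 11 to 20 nt away for 176 and 21 to 50 nt away for 379. It lay 51 to 200 nt away for 551 (34.6%), the largest class, and farther but within 1000 nt for 226. For 133 (8.35%) it was over 1000 nt away or on no listed position of the strand. The mirror sets had 7.04% (KO 1) and 8.37% (KO 2) beyond 1000 nt. Where a KO 1 site lay within 50 nt (476 members), its reads were a median 1.0 times those of the WT member, and for KO 2 (546 members) 1.20 times. At positions called in both libraries the medians were 0.986 and 1.23. The KO 2 reads were at least as many as the WT reads for 66.1% of these neighbours, against 81.1% of the shared positions. These values cover only the 29.9% (KO 1) and 34.3% (KO 2) of members with a called site nearby, and say nothing of the others.

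The motif mix of the members differed slightly from that of other WT sites and resembled the mirror sets. GGAC made up 36.4% (34.1 to 38.9) of members against 39.9% (38.9 to 40.8) of the others, and 33.9% and 33.1% of the absent KO 1 and KO 2 sites. AAAC was more frequent, 12.4% against 7.83%, with 12.4% and 13.1% in the mirror sets. AGAC was less frequent, 16.6% against 21.2%, and here the mirror sets were higher, at 20.2% and 19.7%. A last letter C, the least used ending of DRACH, stood in 13.6% of members against 6.72% of others, and in 10.9% and 11.7% of the mirror sets. The difference in GGAC was widest among deeply covered sites of the WT list, and the mirror sets were not split by reads. With 200 or more reads, 17 of 116 members (14.7%, 8.78 to 22.4) had GGAC against 38.2% of the others, while below 50 reads the shares were 39.2% and 44.8%. When sites within 50 nt counted as found, the GGAC share of the absent sites was 39.7%, against 39.4% of the rest, so the GGAC difference was no longer seen.

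The member with the most substituted reads lay in KBTBD6, an adaptor of a CUL3 ubiquitin ligase, at 13:41131461 with 48 of 113 reads (42.5%) and the motif GGACA, 1341 nt from the gene start. Both KO libraries covered that gene, with up to 145 reads at a listed KO 1 site and 176 at a KO 2 site, but neither listed this position. The closest listed sites were 161 nt away with 76 reads in KO 1 and 44 nt away with 89 reads in KO 2.

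Several other top members had many reads, few of them substituted, and most of these sat near sites in the KO lists. ACTB (beta-actin) at 7:5527736 had 23 of 1850 reads (1.24%), 6 nt from a position with 116 of 1594 substituted reads in WT, 59 of 1039 in KO 1 and 128 of 1953 in KO 2. XIST, the noncoding RNA of X inactivation, had 17 of 1058, 7 nt from KO sites with 1418 and 1315 reads. RNR2, the mitochondrial large ribosomal RNA, held 2 of the top 10, with 22 of 1425 and 17 of 1599, the first 8 nt from sites in both KO lists. The lactate transporter SLC16A1 had 15 of 686, 25 nt from sites in both. ATP6, a mitochondrial ATP synthase subunit, had 13 of 1050, with the nearest KO 2 site 34 nt and the nearest KO 1 site 536 nt away. A different kind were NORAD, a noncoding RNA that binds Pumilio proteins, with 14 of 64 (21.9%), and NUDT12, an NAD-cap hydrolase, with 14 of 37 (37.8%), where the substituted share was high and the nearest sites were 130 nt away in NORAD and 10 nt (KO 2) or 159 nt (KO 1) away in NUDT12. The mirror sets had members of both kinds: KO 1 led with RNR2 (23 of 1834) and the stress factor ATF3 (23 of 260), followed by XIST, SOX4 and EEF2. KO 2 led with RNR2 (29 of 1786 and 20 of 1718) and HSPA1B (26 of 2447), followed by the chromatin chaperone DAXX (19 of 85) and the replication factor TICRR (19 of 45).

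On the mitochondrial chromosome, 20 of 65 WT sites were absent from both KO lists (30.8%, 19.9 to 43.4), spread over RNR1, RNR2, TRNL1, ND2, COX1, COX2, ATP6, ND4, ND5 and CYTB. KO 1 had 9 of 51 absent (17.6%) and KO 2 had 22 of 70 (31.4%). ND5, a complex I subunit, held 4 members, with 1.27% to 1.85% of reads substituted. In lncRNA genes 45 of 245 WT sites were absent (18.4%, 13.7 to 23.8), with 18.7% and 18.5% in the KO libraries.

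A gene could be named for 1522 members, 1470 of them in protein-coding genes. They fell in 1256 genes, which were 28.6% of the 4385 genes with a WT site of 5 or more substituted reads. Genes with a member held a median of 7 WT sites. The 8135 other genes with a WT site of any number of substituted reads held a median of 3. Genes with a member have a site with 5 or more by rule, so the sets are not alike. In 1150 of the 1256 genes with a member (91.6%) both KO libraries listed other sites. In 26 genes (2.07%) neither KO library listed any site, against 22 genes (1.71%) for the KO 1 mirror set and 36 (1.83%) for KO 2. Of the 26, NEFM had 5 WT sites, C17orf67 and ZNF8-DT had 3 each, and the rest had 1 or 2. The typical member was thus 1 position in a gene with listed sites in all 3 libraries. On named genes with known strand, members lay a median of 3465 nt from the gene end and others 2737 nt, distances along the genome that include introns.

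There were 44 genes with 3 or more members. SPEN, a nuclear corepressor that XIST binds, had 9, with 5 to 11 substituted reads. WT listed 87 SPEN sites, KO 1 60 and KO 2 88, and at the 38 SPEN positions shared by all 3 lists the median k was 195, 94 and 209.5. KO 1 thus had fewer sites and fewer reads in SPEN, and KO 2 was close to WT in both. XIST had 6 members among 99 WT, 101 KO 1 and 96 KO 2 sites, and as a mirror 10 KO 1 sites absent from the others. The chromatin protein RAI1 had 5. The kinase CDK12, the adaptor IRS4, the histone methyltransferase KMT2D, the ubiquitin ligase MID1, the noncoding transcript TUG1, ND5 and RNR2 had 4 each. MID1 stood out from these, with 15 WT sites against 3 in KO 1 and 4 in KO 2. At the 1 shared MID1 position k was 40 in WT, 20 in KO 1 and 16 in KO 2. Among genes with 3 members, MEX3D had 10 WT, 2 KO 1 and 7 KO 2 sites, PAICS 9, 2 and 7, LYRM2 11, 3 and 11, and HSP90AB1 13, 5 and 13. These 4 were picked after their values were seen, and others differ: MTMR4 had 15, 9 and 5 sites and CEP350 15, 24 and 13. Over all 44 genes, which were chosen for sites missing from the KO lists, KO 1 listed fewer sites than WT in 39 and KO 2 in 24, with medians of 16 (WT), 12 (KO 1) and 13.5 (KO 2).

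Members fell in some genes of each pathway list that was examined. Of 28 enzymes and readers of m6A and m6Am, 20 had a WT site with 5 or more substituted reads and 8 held a member, against 3 that held a KO 1 and 12 that held a KO 2 mirror site. They were PCIF1 (above), the readers PRRC2A (9 of 432 reads substituted), YTHDF2 (9 of 77), IGF2BP1 (7 of 23), IGF2BP3 (6 of 31), HNRNPC (5 of 119) and HNRNPA2B1 (5 of 47), and the writer-complex adaptor RBM15B, with 2 members (5 of 192 and 5 of 157). Except for PCIF1, none of these lay in an m6Am region. Of 27 genes for cap methylation, cap binding and decapping, 10 had such a site and 3 held a member: EIF4A2 (5 of 55), EIF4G2 (5 of 35) and the decapping cofactor DCP1A (5 of 38). A mirror site lay in 1 of these genes for KO 1 and in 5 for KO 2. Of 24 mitosis and cell cycle genes, 16 had such a site and 5 held a member: MCM3 (7 of 275), AURKA (5 of 65), AURKB (5 of 66), MCM6 (5 of 38) and MKI67, with 2. For this list 2 genes held a KO 1 and 7 a KO 2 mirror site. Of 21 transcription factor and chromatin genes, 17 had such a site and 12 held a member, the same number as for KO 2, with 8 for KO 1. These included KMT2D with 4, ATF4 (9 of 223 and 7 of 205), JUN (5 of 186), JUNB (7 of 42), CREBBP (7 of 53) and ARID1A (5 of 14). The others were SOX4, SOX12, KMT2A, KMT2B, KMT2C and SETD1A, of which KMT2C and SETD1A held 2 members each. Beside these stands the 28.6% of all genes with such a site that held a member. That share is not matched for the number of sites per gene. Genes with a member held a median of 7 WT sites. Other genes with a WT site of any number of substituted reads, a wider set than that behind the 28.6%, held 3. The 21 transcription factor and chromatin genes held 379 WT sites. Whether any list differs from genes with as many sites was not tested.

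Of 12 marker genes of HEK293T lineage, 10 had a WT site, all but PAX2 and L1CAM. Of the markers of other cell types, 1 of 10 fibroblast genes (COL1A1) and none of 9 blood and endothelial or 5 hepatocyte and epithelial genes had a WT site.

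RNA levels of the members' genes were read from the input libraries of the ribosome profiling experiment, 2 WT and 3 KO libraries of cytoplasmic HEK293T RNA with 4511687 to 5960674 counts each. The labels do not say that replicates are separate cultures, so p-values measure the spread between these libraries. The files name genes only in the authors' class tables, so 233 of the 1256 genes could be tested. None was called between KO and WT by edgeR's quasi-likelihood test (lowest adjusted p 0.36), against 5 of 14629 genes overall (0.0342%). DESeq2 also called 0 of the 233. At an unadjusted p under 0.05 there were 36 (15.5%), beside 146 of 1160 other named genes (12.6%) and 9.3% of all genes tested. Of the 36, 28 were lower and 8 higher in KO. The other genes at that threshold were not split by direction, so this split cannot be called particular to the members. With DESeq2 the count of members at that threshold was 25, beside 112 of 1160 other named genes. In edgeR it was 17 without KO 1, beside 58 of 1160 others. Without KO 2 it was 23, beside 85 of 1159, and without KO 3 it was 23, beside 99 of 1160. Log2 fold changes over the 233 ran from -0.57 to 0.56, with a median of -0.01 against -0.02 for all genes tested. The WT libraries differed from each other: WT 1 lay at -40.2 on the first principal component and the other 4 between 2.22 and 16.3. Without WT 2, 70 of the 233 were called, beside 1912 of 15386 genes overall (12.4%), and without WT 1, 0, beside 53 of 15161 (0.35%). In both fits WT is 1 library, assumed to vary like the KO libraries. Leaving out KO 1, KO 2 or KO 3 gave 0 of the 233, beside 0.0139%, 0.0552% and 0.0207% of all genes tested, and with no filter on low counts 11 were called, beside 0.496% overall.

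The 5 member genes with the smallest p were all lower in each KO library than in either WT library. AP2B1, a clathrin adaptor subunit, had 370 and 269 normalised counts (CPM) in WT and 220, 233 and 216 CPM in KO, a log2 fold change of -0.52 ± 0.12 (SE, edgeR adjusted p 0.36). The cytoskeletal linker MACF1 had 334 and 239 CPM in WT and 191, 218 and 185 CPM in KO. AMOT, an angiomotin, had 747 and 599 against 510, 428 and 542 CPM. IGF2BP1 had 913 and 697 against 635, 618 and 630 CPM, and BAHCC1, a chromatin protein, had 176 and 167 against 138, 125 and 140 CPM. In the first 4 genes WT 1 was well above WT 2. SPEN, with the most members, had 493 and 447 CPM in WT and 403, 466 and 402 in KO (log2 fold change -0.15 ± 0.09, edgeR adjusted p 0.62). SMC4 had 68.9 and 72.8 against 81.4, 80.4 and 74.8 CPM (0.16 ± 0.12, edgeR adjusted p 0.71). The SMC4 mean was higher in KO, a difference that did not pass the test. RNA levels of ZRANB2, NEFM, SHISA2 and KBTBD6 were not analysed here.

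In the authors' class tables, 100 of 233 genes with a member (42.9%, 36.5 to 49.5) had an m6Am transcript start, against 197 of 507 other genes with a WT site of 5 or more substituted reads (38.9%, 34.6 to 43.3), so the intervals overlap. In the authors' deposited SLAM-seq table, whose KO over WT ratio comes from metabolic RNA labelling, the 92 genes with a member had a median ratio of 0.887, beside 0.891 for all 666 genes.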

How the data were processed

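Per the file headers, the authors deposited 1 list of DRACH positions per miCLIP library, with whole-number counts of substituted reads. Score units of the m6Am regions and the input counts per Ensembl gene are also as deposited by the authors, and the SLAM-seq value is the authors' KO over WT ratio. The submitters' processing notes name BWA 0.7.17, STAR, bedtools, deepTools, GRCh38 and hg38, without roles. The members and gene lists were chosen with earlier results of these data known. Sites were matched within 5 nt on the same strand. Sites were named from RefSeq genes of GRCh38.p14, of which 27518 of 38902 have a strand in the tables used. A RefSeq promoter sequence covered 16 members. Intervals are exact Clopper-Pearson intervals at 95% (scipy 1.17.1). Input counts were tested with edgeR 4.0.16 (TMM, filterByExpr, quasi-likelihood, Benjamini-Hochberg), checked on simulated data. DESeq2 1.42.0 was an alternative. Named sites are the 10 with most substituted reads, those in m6Am regions, those within 50 nt of a start, genes with 3 or more members, listed pathway genes, the top 5 mirror sites and the 5 lowest input p.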

Additional observations from a re-analysis of the deposited data

How the results depend on the processing

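The number of absent WT sites stayed within 1.5 times of 1592 when only the same position, 20 nt or either strand counted, or when the searched lists were limited to 3 or more substituted reads. It was 910 with a window of 50 nt, 8587, 3550, 187 and 68 with at least 3, 4, 8 and 10 substituted reads, and 797 with at least 50 reads. The KO 2 mirror set went to 1530, 11975, 5523, 477, 159 and 1761 under these settings, and the KO 1 set to 839, 8762, 3653, 196, 63 and 976. With only 1 KO list searched, 2789 to 3641 WT sites were absent. Against WT alone, 5107 KO 2 and 3679 KO 1 sites were absent. The share inside m6Am regions was 4.41% with at least 10 substituted reads (3 sites) and 0.604% to 0.610% with 1 KO list searched. It stayed above that of the other WT sites in each setting. The share near starts was 1.47% with at least 10 (1 site), 2.14% within 200 nt, and 0.412% to 0.538% with 1 KO list. The GGAC share was 30.5% with at least 3, 32.4% with at least 10 and 39.7% with the 50 nt window, and 36.6% to 37.4% with 1 KO list. In the input RNA, 11 member genes were called with no filter on low counts (152 of 30638 genes overall), and 0 to 70 when 1 library was left out (2 to 1912 genes overall); the cause was not tested. With the replicate block 0 were called. Deviations of same-numbered libraries from their group means correlated at 0.16 and -0.0033. With 2 WT libraries, the WT deviations are exact opposites, so these values cannot show whether same-numbered libraries were paired. Reads at positions that a library did not call are not given, so absence from a list cannot be set against depth there.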
